A study of Mus musculus with 3 samples.

Results

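The genes described here are those of the proteasome and of the enzymes that attach ubiquitin to proteins or remove it, as measured in the neural retina of Rp1 knockout mice. The members were chosen by gene symbol: 102 of the 8251 genes that had a probe set of their own carried a symbol beginning with Psma, Psmb, Psmc, Psmd, Psme, Uba, Ube, Usp or Uch. Of these, 40 encode proteasome subunits, activators or assembly factors, 55 encode enzymes of ubiquitin attachment or removal, and 7 share the first letters of such a symbol without being a subunit or an enzyme of the pathway. The mice were homozygous for the knockout (Rp1-/-) on a mixed 129/SvEv and C57BL/6 background and were killed at postnatal day 21. The Rp1 protein binds microtubules in photoreceptor cilia. Each of the 3 samples was 1 RNA pool from the neural retinas of 3 to 4 mice, collected between 1 and 2 pm and hybridised to 1 one-colour U74Av2 array. All samples belong to this 1 group. No wild-type or other control sample was analysed here, so none of the values below is a response to the knockout. The labels do not give the sex of the mice.

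Most short-lived and damaged proteins of a cell are degraded by the proteasome. Ubiquitin is activated by an E1 enzyme, passed to an E2 conjugating enzyme and attached to a substrate with the help of an E3 ligase, and chains of it direct the substrate to the proteasome. The barrel-shaped 20S core holds the proteolytic sites on its beta subunits, and the 19S regulatory particle recognises, unfolds and feeds in the substrate. Deubiquitinases remove or trim the chains. Photoreceptors renew their outer segments daily and carry a high load of protein synthesis and turnover.

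The array carries 19 probe sets for transcripts of bacteria and yeast, and the 95th percentile of their signals served as the background limit, at 160.3, 80.7 and 107.1 in replicates 1, 2 and 3. This limit describes signal and is not a detection call. All signals are array intensities after scaling to a common trimmed mean. Probe sets differ in response, so no gene's signal is compared with another's. A signal below the limit shows only that this probe set was not above background. Markers of the labelled tissue were present: 6 of 6 rod genes, 7 of 7 genes of inner retinal neurons and 4 of 4 Müller glia genes passed the limit on all 3 arrays. The pools differed in genes of neighbouring tissue: the summed signal of 5 pigmented cell genes was 1422, 12026 and 7835 in replicates 1, 2 and 3, and that of 4 red blood cell genes was 5490, 31716 and 8254.

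Promoter windows could be read for 82 of the 102 members from a RefSeq table of mouse assembly GRCm38.p6, each running from 250 bases before to 50 bases after an annotated gene start. The 5 windows below come from 2 catalytic subunits of the core and 3 subunits of the regulatory particle, and are shown to place the motif matches counted next: the core windows each hold the first motif and the others the second. Capitals mark every match of TGACNNNGC (the core of the antioxidant response element, bound by Nfe2l1 and Nfe2l2) and CCGGAAG (the core that ETS factors bind), on either strand.
Psmb5, chr14:54617946-54618245, minus strand: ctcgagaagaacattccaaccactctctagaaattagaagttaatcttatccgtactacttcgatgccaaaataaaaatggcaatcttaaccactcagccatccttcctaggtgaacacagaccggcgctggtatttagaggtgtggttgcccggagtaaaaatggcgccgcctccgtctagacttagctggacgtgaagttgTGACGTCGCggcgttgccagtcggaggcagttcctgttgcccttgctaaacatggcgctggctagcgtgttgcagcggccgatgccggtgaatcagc
Psmb6, chr11:70525107-70525406, plus strand: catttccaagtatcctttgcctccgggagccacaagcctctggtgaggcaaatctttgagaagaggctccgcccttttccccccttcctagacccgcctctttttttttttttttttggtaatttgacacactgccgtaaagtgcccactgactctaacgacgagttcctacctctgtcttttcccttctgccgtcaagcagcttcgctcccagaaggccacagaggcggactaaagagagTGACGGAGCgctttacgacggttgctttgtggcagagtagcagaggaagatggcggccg
Psmc1, chr12:100109952-100110251, plus strand: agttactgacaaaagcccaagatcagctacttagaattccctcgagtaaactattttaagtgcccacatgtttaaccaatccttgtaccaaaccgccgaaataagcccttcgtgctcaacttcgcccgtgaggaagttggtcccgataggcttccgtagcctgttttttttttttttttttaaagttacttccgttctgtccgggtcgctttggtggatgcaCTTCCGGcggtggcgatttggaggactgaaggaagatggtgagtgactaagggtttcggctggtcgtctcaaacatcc
Psmd6, chr14:14120896-14121195, minus strand: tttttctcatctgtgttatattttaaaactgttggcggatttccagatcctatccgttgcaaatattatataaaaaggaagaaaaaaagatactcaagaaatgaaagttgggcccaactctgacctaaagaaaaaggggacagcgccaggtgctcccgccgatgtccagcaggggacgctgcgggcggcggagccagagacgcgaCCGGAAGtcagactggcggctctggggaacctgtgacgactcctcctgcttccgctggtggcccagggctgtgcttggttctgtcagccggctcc
Psmd13, chr7:140882144-140882443, plus strand: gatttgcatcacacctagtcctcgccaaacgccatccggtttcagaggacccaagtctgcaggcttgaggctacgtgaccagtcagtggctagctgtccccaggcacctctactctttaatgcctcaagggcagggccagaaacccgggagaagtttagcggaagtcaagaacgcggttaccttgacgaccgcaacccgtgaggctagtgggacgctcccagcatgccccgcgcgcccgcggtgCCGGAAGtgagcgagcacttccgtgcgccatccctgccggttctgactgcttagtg
The motif CCGGAAG was found in the windows of 9 of the 14 regulatory particle genes that had one (64.3%), against 1 of 11 constitutive core genes (9.09%). The share was 20.9% over the 4040 genes above background on all arrays that had a window, and 9.93% over all 27025 genes of the table. Read along the window, the match began 28 bases before the listed start in Psmc1, where it lay on the opposite strand. It began 45 bases before the start in Psmd6 and 6 before it in Psmd13. TGACNNNGC was found for 6 of 34 proteasome genes (17.6%), close to the 16.9% of the genes above background. It was in 2 of 11 core genes (18.2%) and 2 of 14 regulatory particle genes (14.3%), and lay 47 bases before the start in Psmb5 and 9 before it in Psmb6. These matches describe letters in a window and do not show binding. CCGGAAG was added to the search after the array values had been seen, so its uneven share between the core and the regulatory particle is a description. The median GC content of the windows was 55.7% for the core and 60.3% for the regulatory particle.

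Across the 102 members, 81 passed the background limit in every pool (79.4%), where 60.7% of all genes did. A further 15 were above it on 1 or 2 arrays and 6 on none (Psmb9, Ube2t, Usp12, Usp17la, Usp42 and Psmc3ip), where 15.7% of all genes were above it on none. The proteasome genes passed in 34 of 40 cases (85.0%), the ubiquitin enzymes in 42 of 55 (76.4%) and the genes that share only the prefix in 5 of 7. When any probe set of a gene counted, 82 members were above background on all arrays.

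The 7 alpha subunits, which form the outer rings and gate of the core, were all above background on every array. Psma3 had signals of 2501, 4164 and 3347 in replicates 1, 2 and 3. Psma2 gave 2016, 3142 and 2441, and Psma6 gave 1651, 2977 and 2548. In each of these genes replicate 2 was highest and replicate 1 lowest, with fold ranges between the pools of 1.66, 1.56 and 1.80. Psma4 (903, 1325 and 1045) and Psma7 (989, 1643 and 1231) had the same order of samples. Psma5 gave 850, 1011 and 1078, so that replicate 3 was highest by a small margin. Psma1 went the other way, with 839 in replicate 1 against 518 and 376 in replicates 2 and 3, a fold range of 2.23 that was the widest of the alpha subunits.

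Of the 7 constitutive beta subunits, which line the inner chamber, 6 were above background on all arrays. Psmb5, which carries the chymotrypsin-like site, gave 937, 278 and 547 at the probe set used, lowest in replicate 2. At a further Psmb5 probe set the signals were 1137, 1588 and 1048, highest in replicate 2, so the order of the pools was not shared between the probe sets of this gene. Psmb6, with the caspase-like site, gave 1376, 1826 and 771, and Psmb7, with the trypsin-like site, gave 1261, 1842 and 1333. The structural subunits Psmb2 (1018, 2053 and 1767) and Psmb3 (1327, 2865 and 2296) were lowest in replicate 1, with fold ranges of 2.02 and 2.16. Psmb1 varied less, at 1034, 1370 and 1064. Psmb4 gave 190, 130 and 64.5 at its plain probe set, below the limit in replicate 3. A further probe set of Psmb4, whose suffix marks possible cross-hybridisation within a family, gave 3202, 3602 and 2378, and was passed over by the rule that prefers a plain suffix.

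**Figure D1:**
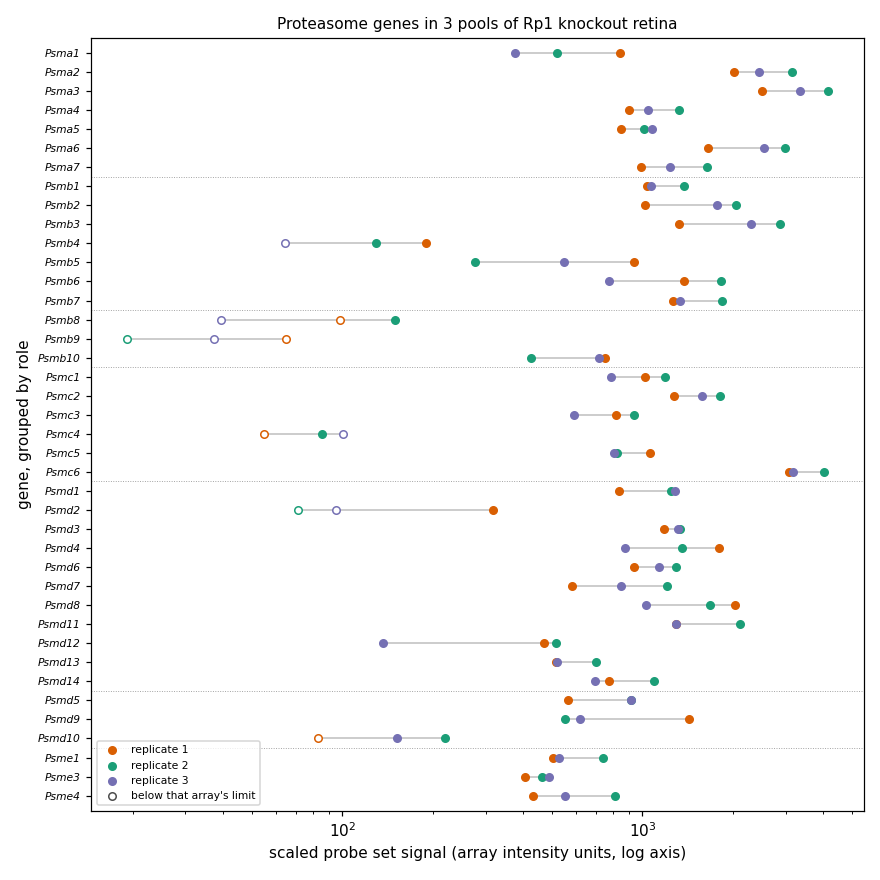
Scaled probe set signal (log axis) of the 40 proteasome genes in the 3 pools, with 1 row per gene, grouped from top to bottom as alpha, beta, immunoproteasome, regulatory ATPase, regulatory non-ATPase, assembly factor and activator genes. Filled points lie above the background limit of their array and open points do not; in 10 of the 14 constitutive core genes replicate 2 is the point furthest right, while Psmb8, Psmb9, Psmc4 and Psmd2 have open points on at least 2 arrays.

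The immunoproteasome subunits replace the catalytic beta subunits in immune cells and after interferon exposure. They did not share 1 level of detection. Psmb10 was above background in every pool, at 750, 426 and 717. Psmb8 gave 98.3, 149 and 39.5 and passed the limit only in replicate 2. Psmb9 gave 64.9, 19.1 and 37.4 and was below the limit in all pools. Genes that act beside these subunits in antigen processing were mixed as well. The peptide transporter genes Tap1 and Tap2 gave 245, 153 and 155, and 237, 11.8 and 42.4, so Tap2 passed the limit in replicate 1 alone. Tapbp, which loads peptides, gave 830, 1590 and 1304, and B2m, the light chain of class I molecules, was 153 in replicate 1, below the limit, and 879 and 782 in the others. Of 9 interferon response genes with a probe set, 4 were above background on all arrays. Of 12 microglia and immune cell markers 6 were, with summed signals of 3456, 3368 and 3972 in replicates 1, 2 and 3. Those 6 were C1qa, C1qc, Csf1r, Tyrobp, Ctss and Cx3cr1, and another 3 passed the limit on some arrays only. Ptprc, the pan-leukocyte marker, Itgam and Lyz2 were above the limit on no array at the probe sets used. Ptprc and Lyz2 also have further probe sets that are not given here. The part of immune cells in the Psmb10 signal was not tested, and in bulk tissue fewer cells of a type and less RNA per cell cannot be told apart.

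The regulatory particle is driven by a ring of 6 ATPases. Psmc6 gave 3069, 4021 and 3173, Psmc2 gave 1274, 1808 and 1579, and Psmc1 gave 1016, 1191 and 783. In these 3 genes and in Psmc3 (815, 937 and 591) replicate 2 was highest. Psmc5 gave 1056, 823 and 801, highest in replicate 1. The fold ranges of these 5 genes ran from 1.31 to 1.59, and none reached 2. Psmc4 gave 54.9, 85.7 and 101 at its only probe set and passed the limit in replicate 2 alone, although the ring needs this subunit in every cell. For Psmc3, 2 further probe sets gave 1040, 664 and 597, and 485, 252 and 278, both highest in replicate 1. The Psmc3 probe set used and the last of these further ones carry a suffix for family sequence, as do the only ones of Psma3, Psmb7 and Psmd12. Psmd9 rests on a probe set whose suffix marks relaxed probe selection. Related transcripts could add to the signals of all these probe sets.

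The 11 non-ATPase subunits form the base and lid that bind and process ubiquitin chains. Psmd3 was the steadiest proteasome gene, at 1176, 1330 and 1311, a fold range of 1.13. The scaffold subunit Psmd1 gave 837, 1246 and 1283, Psmd6 gave 934, 1295 and 1138, and Psmd13 gave 513, 699 and 518. Psmd14, the deubiquitinase of the lid, gave 776, 1092 and 693, and Psmd7, its partner, gave 583, 1205 and 849, a fold range of 2.07. The ubiquitin receptor Psmd4 gave 1798, 1350 and 876, and Psmd8 gave 2029, 1682 and 1027, both highest in replicate 1 and lowest in replicate 3. Psmd12 had the widest range among the subunits above background on all arrays, at 471, 516 and 136, a fold range of 3.79 set by replicate 3. Psmd11 gave 1295, 2107 and 1289, but at 2 further probe sets it was 747, 502 and 357, and 339, 153 and 387. The large scaffold subunit Psmd2 gave 318, 71.3 and 95.1 and passed the limit in replicate 1 alone.

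Among factors that help assemble the base of the particle, Psmd5 gave 564, 918 and 912 and Psmd9 gave 1434, 552 and 621. Psmd10, also known as gankyrin, was 83.1 in replicate 1, below the limit, and 220 and 152 in the other pools. The activators that cap the core in place of the regulatory particle were all above background. Psme1, of the interferon-inducible cap, gave 503, 740 and 528. Psme3, its nuclear relative, gave 407, 462 and 486, a fold range of 1.20, and Psme4 gave 432, 811 and 550. A probe set listed for both Psme2 and Psme2b gave 330, 629 and 527 and could not be given to 1 gene. Of 5 further proteasome genes outside the chosen symbols, Pomp, an assembly factor of the core, gave 1645, 2127 and 1176, Sem1, a small lid subunit, gave 1393, 1843 and 1119, and the chaperone genes Psmg1 and Psmg2 gave 444, 392 and 348, and 265, 530 and 241. Txnl1, a thioredoxin bound to the particle, was 69.6 in replicate 1, below the limit, and 514 and 412 in the others.

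At the probe sets used, most core subunits ordered the pools alike. The order was replicate 2, then replicate 3, then replicate 1, from high to low, in 9 of 13 genes. Of all genes above background on all arrays, 21.8% had this order. Replicate 2 was highest in 10 of the 13 core genes above background on all arrays (76.9%), against 33.0% of all such genes, and replicate 1 was lowest in 10 of 13, against 36.0%. The deviation of a gene in a sample was its log2 signal minus the mean of the other samples. For the core, the medians were -0.38, 0.51 and -0.04 over replicates 1, 2 and 3, against 0.06, -0.01 and -0.04 over the 5006 genes. Relative to all genes, the core deviated by -0.45 in replicate 1 and by 0.51 in replicate 2, and these became -0.24 and 0.27 after quantile normalization, and likewise -0.24 and 0.27 among genes with a mean signal of 1000 or more. Without replicate 1 the value in replicate 2 was 0.33. Scaling the arrays to a common median instead moved all genes by -0.22, 0.23 and 0.02 on the log2 scale, which cannot change a deviation relative to all genes. Brighter genes in general tended to this order: of the 1495 genes with a mean signal of 1000 or more, replicate 2 was highest in 54.1% and replicate 1 lowest in 56.4%, against 10 and 9 of the 10 core genes in that range. No test was possible with 1 group, and the subunit genes are not independent samples.

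In the 15 regulatory particle genes above background, replicate 2 was highest in 11 (73.3%) and lowest in none, against 33.0% and 32.4% of all genes. Here replicate 1 was lowest in 7 and replicate 3 in 8. Their median deviation was -0.17, 0.37 and -0.22 in replicates 1, 2 and 3, or -0.23, 0.37 and -0.18 relative to all genes, so replicates 1 and 3 both lay below replicate 2 and their order was not settled. Among the 8 regulatory particle genes with a mean of 1000 or more, replicate 2 was highest in 5, near the share of all genes in that range, and the deviation relative to all genes fell to 0.04 in replicate 2. Summed marker signals were also highest in replicate 2 for rods (80013, 114667 and 78551 in replicates 1, 2 and 3), inner retinal neurons (23954, 25516 and 20699), Müller glia (10815, 17445 and 14250), lens (102996, 164474 and 121015), pigmented cells and red blood cells. Connective tissue genes (828, 1900 and 2394) and microglia and immune cell markers (3456, 3368 and 3972) were highest in replicate 3. Brighter genes carry such sums: among the rod genes Nrl (1468, 496 and 706) and Prph2 (4470, 1941 and 1690) were highest in replicate 1. Of the 7 inner retinal neuron genes, replicate 2 was highest in 1, the bright gene Snap25 (11358, 12929 and 9159), and replicate 1 was highest in 4. The part of these cells and tissues in the order of the proteasome genes was not tested.

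**Figure D2:**
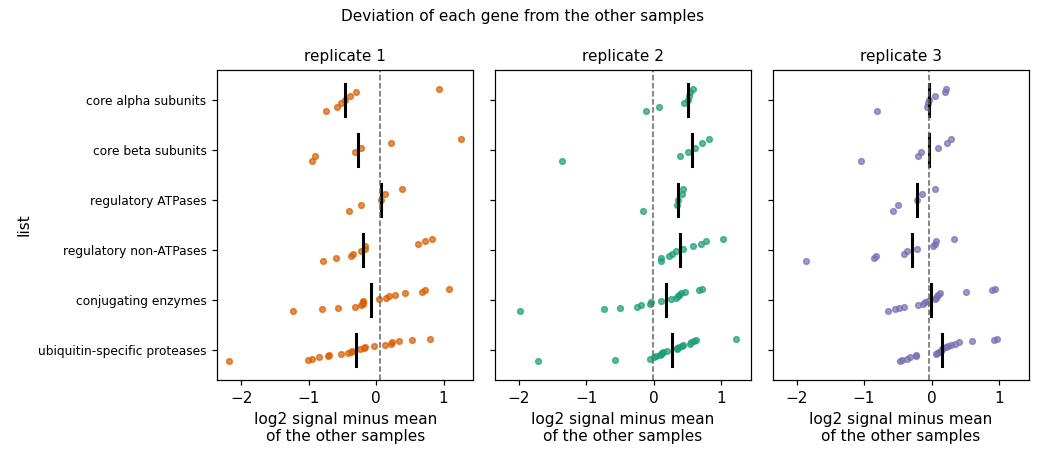
Deviation of each gene above background on all arrays (log2 signal minus the mean of the other samples) for 6 lists, with 1 panel per replicate, points for genes, black bars for the list medians and a dashed line for the median of all 5006 genes. In replicate 2 the alpha and beta bars lie at 0.50 and 0.56, to the right of the dashed line at -0.01, and in replicate 1 they lie at -0.46 and -0.27.

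E1 enzymes start each ubiquitin-like pathway. Uba3, the catalytic subunit of the Nedd8 E1, gave 482, 426 and 563, and Uba7, the E1 of Isg15, gave 197, 187 and 250.7, with fold ranges of 1.32 and 1.34. The Y-linked E1 gene Uba1y gave 232, 10.4 and 40.7 and passed the limit in replicate 1 alone, while its further probe set was below background on all arrays. The matching modifiers gave 2275, 2279 and 1680 for Nedd8, and 107, 204 and 36.4 for Isg15, which passed the limit only in replicate 2. Sumo3 gave 3370, 4555 and 3809, and Ubd, an interferon-inducible modifier, was above the limit on no array.

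Of the 21 E2 genes, 16 were above background on all arrays. Several were steady between pools. Ube2g1 gave 1199, 1379 and 1366 and Ube2h gave 1251, 1117 and 1078, with fold ranges of 1.15 and 1.16, although a further Ube2h probe set gave 424, 1026 and 901. Ube2v1, a catalytically inactive variant that works with Ube2n in making lysine-63 chains, gave 1759, 2275 and 1862. Its partner Ube2n gave 929, 2284 and 2085, a fold range of 2.46 with replicate 1 low. Ube2d3, a broadly acting E2, gave 1331, 2148 and 1813, and the related Ube2d2a gave 760, 1008 and 759. The other E2 genes with a fold range of 2 or more were Ube2e3 (173, 134 and 291) and Ube2c (377, 91.8 and 348).

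Ube2c and Ube2s work together with the anaphase-promoting complex in dividing cells. At their only probe sets they did not vary together. Ube2c was lowest in replicate 2, at 91.8 against that array's limit of 80.7, with a 4.11-fold range. The suffix of its probe set marks relaxed probe selection. Ube2s was 106 in replicate 1, below the limit, and 721 and 522 in the others, a difference of at least 4.50-fold. Ube2t, an E2 of DNA crosslink repair, gave 110, 31.5 and 4.8 and was above background on no array. Ube2l6, the E2 of Isg15, passed the limit in replicate 2 alone, at 171 against 137 and 62.1 in replicates 1 and 3. Ube2f, an E2 of Nedd8, gave 104, 204 and 371, and Ube2v2 gave 90.5, 219 and 278, both below the limit in replicate 1. A further Ube2v2 probe set went the other way, at 250.5, 14.7 and 57.7, above the limit in replicate 1 alone. The remaining E2 genes above background, Ube2a, Ube2b, Ube2e1, Ube2k, Ube2o, Ube2r2, Ube2w and Ube2z, had fold ranges under 2 at the probe set used. A probe set listed for Ube2l3 and 4 other genes gave 2056, 2825 and 3649. Ube3a, the ligase lost in Angelman syndrome, gave 263, 250 and 181, and the chain-extending ligase Ube4b gave 1294, 973 and 845, both lowest in replicate 3.

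Among the ligase genes outside the chosen symbols, 28 of 29 were above background on all arrays and 4 of these had a fold range of 2 or more. Nedd4 gave 1712, 2833 and 2317, Nedd4l gave 630, 611 and 688, Itch gave 1235, 1027 and 1062, and Huwe1 gave 764, 1866 and 1684. Arih1, an E3 that works with cullin ligases, had the widest range, at 755, 3082 and 3154. All 9 genes of the COP9 signalosome, which removes Nedd8 from cullins, were above background and none reached a fold range of 2. The 8 shuttle and unfoldase genes were all above background too, and 3 of them had a fold range of 2 or more (37.5%, against 28.3%). Vcp, the unfoldase that extracts ubiquitinated proteins, gave 2757, 2146 and 1814. Nfe2l1, a transcription factor that raises proteasome gene expression when degradation is impaired, gave 1450, 1307 and 1408, a fold range of 1.11, and Nfe2l2 gave 436, 610 and 499.

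**Figure D3:**
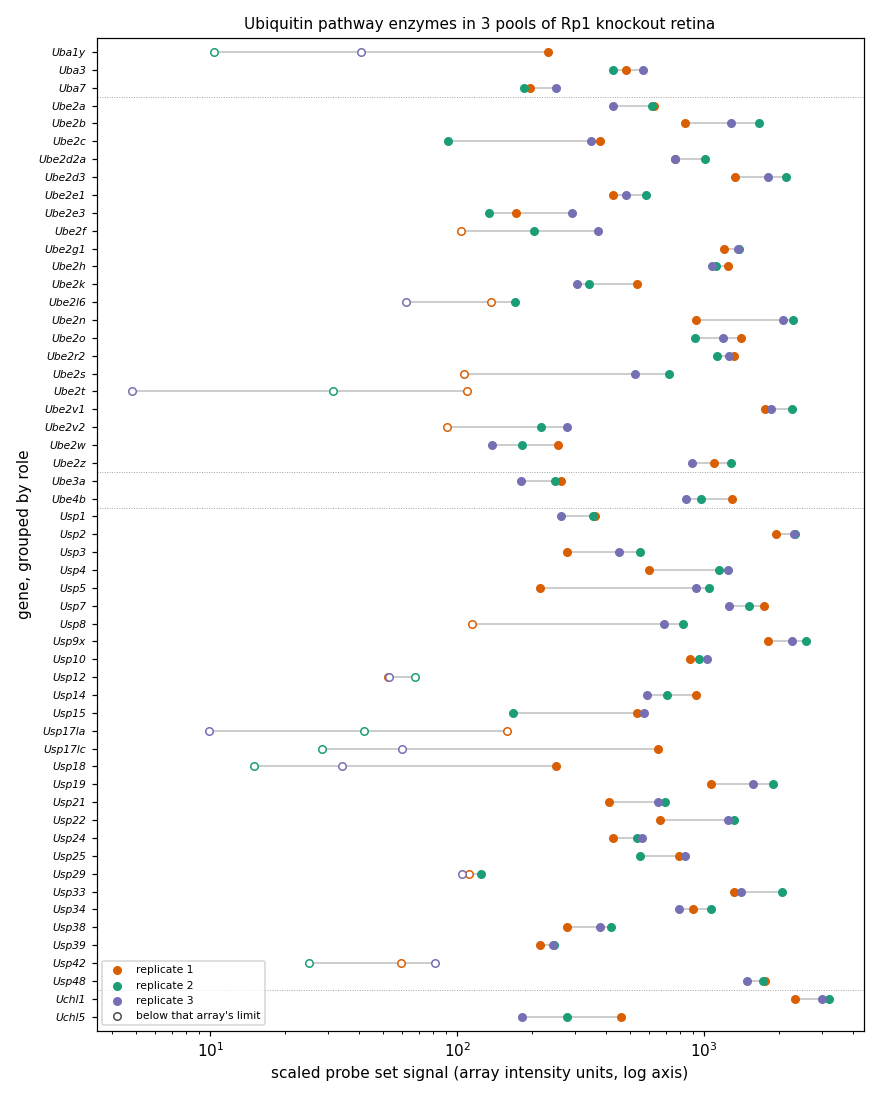
Scaled probe set signal (log axis) of the 55 ubiquitin enzyme genes in the 3 pools, 1 row per gene, grouped from top to bottom as E1, E2, E3 and chain-extending, ubiquitin-specific protease and UCH hydrolase genes, with open points below the limit of their array. Usp8, Ube2s and Usp5 have replicate 1 far to the left of the other pools, and Usp17lc, Usp18 and Uba1y have it far to the right.

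Of the 27 ubiquitin-specific protease genes, 20 were above background on all arrays. Usp9x, a large X-linked deubiquitinase, gave 1821, 2593 and 2276, Usp2 gave 1957, 2324 and 2308, Usp48 gave 1764, 1728 and 1490, and Usp33 gave 1322, 2071 and 1411. Usp14, which trims chains on the regulatory particle, gave 927, 707 and 585. Usp7, which acts on Mdm2, gave 1752, 1525 and 1265, and a further probe set had the same order of pools, at 417, 235 and 222. The least variable were Usp39, a splicing factor that lacks protease activity, at 216, 246 and 244, and Usp10, at 876, 949 and 1026.

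Usp5 and Usp8 were both far lower in replicate 1 than in the other pools. Usp5, which takes apart unanchored ubiquitin chains, was 216 in replicate 1, against 1042 and 926 in replicates 2 and 3, a 4.82-fold range and the widest of any member above background on all arrays. Usp8, which acts on endosomal receptors, was 114 in replicate 1, below the limit, and 822 and 686 in the others, at least 5.13-fold higher in replicate 2. Usp4 gave 595, 1153 and 1254, a 2.11-fold range in the same direction. Usp15 gave 537, 168 and 571, a 3.40-fold range with replicate 2 low, but its further probe set gave 312, 444 and 389 with replicate 2 highest. Otub1, a deubiquitinase of another family, was also low in replicate 1, at 261 against 1032 and 864.

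Members that passed the limit on some arrays only fell into both directions. In 5 of 102 (4.90%), Psmd10, Ube2f, Ube2s, Ube2v2 and Usp8, replicates 2 and 3 were above the limit and replicate 1 was not, against 8.88% of all genes. In 4 (3.92%), Psmd2, Uba1y, Usp17lc and Usp18, replicate 1 alone was above it, against 4.63%. Both shares lay below those of all genes. At its further probe set, Ube2v2 was above the limit in replicate 1 alone. Usp17lc, of a family of near-identical copies known from blood cells, gave 648, 28.3 and 59.8, at least 8.03-fold between replicates 1 and 2 and the widest bound of any member, and its relative Usp17la gave 158, 42.0 and 9.9, below the limit throughout. Usp18, the protease that removes Isg15 after interferon, gave 252, 15.1 and 34.3. Usp12, Usp29 and Usp42 had mean signals of 57.6, 114 and 55.2, and of these Usp29 passed the limit in replicate 2 and the other genes on no array.

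The UCH hydrolases were both above background. Uchl1, an abundant neuronal protein also known as PGP9.5, gave 2321, 3190 and 3001, or 2837 ± 457 (SD, n = 3). Uchl5, which sits on the regulatory particle, gave 459, 279 and 182, a 2.52-fold range with replicate 1 highest. The 7 genes that only share a prefix were Psmc3ip, a meiotic recombination factor that was above background on no array, Psme3ip1, Ubac1, Ubac2, Ubap1, Ubap2 and Ubap2l. Ubac2 was below the limit in replicate 3, and the other 5 had fold ranges from 1.20 to 1.90.

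Over the 81 members above background, replicate 2 was highest in 44 (54.3%, against 33.0% of all genes). Replicate 1 was highest in 24 (29.6%, against 42.6%) and replicate 3 in 13 (16.0%, against 24.4%). Replicate 1 was lowest in 43 (53.1%, against 36.0%), replicate 3 in 26 (32.1%, against 31.6%) and replicate 2 in 12 (14.8%, against 32.4%). Brighter genes tended to this order: at a mean of 1000 or more, replicate 2 was highest in 69.2% of members and 54.1% of all genes. In 35 members replicate 2 was highest and replicate 1 lowest at once, against 21.8% of all genes. With arrays scaled to a common median, replicate 2 was highest in 66 members (81.5%), against 55.2% of all genes, and replicate 1 lowest in 52 (64.2%), against 54.2%. With the main scaling, replicate 2 was highest in 24 of 34 proteasome genes (70.6%), against 33.0% of all genes. Outside the proteasome the share was lower, at 20 of 42 ubiquitin enzymes (47.6%).

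Of the same members, 16 of 81 had a fold range of 2 or more between the pools (19.8%), against 28.3% of the 5006 genes. Usp5 and Ube2c were the 2 members with a range of 4 or more, which 3.36% of all genes reached. The range of Ube2c rests on a replicate 2 signal near the limit. Among those with a mean signal of 500 or more the count was 11 of 63 (17.5%), against 21.2%. The median SD of the members was 0.33 on the log2 scale, against 0.36 for all genes, and 0.33 against 0.33 for those with a mean of 500 or more. By role, 4 of 6 beta subunits and 1 of 7 alpha subunits reached a 2-fold range, as did 3 of 15 regulatory particle genes, 3 of 16 E2 genes and 3 of 20 ubiquitin-specific proteases. The count of 16 became 5 without replicate 1, 8 without replicate 2 and 10 without replicate 3, where fewer pools leave less room for a range. Without replicate 1 the share was 5.81% of members and 5.66% of all genes. With arrays scaled to a common median the comparison turned round: 31 of 81 members (38.3%) had a fold range of 2 or more, against 34.2% of all genes, and the median SD was 0.46 for members and 0.42 for all genes. Whether the members varied less than genes at large therefore depended on the scaling.

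**Figure D4:**
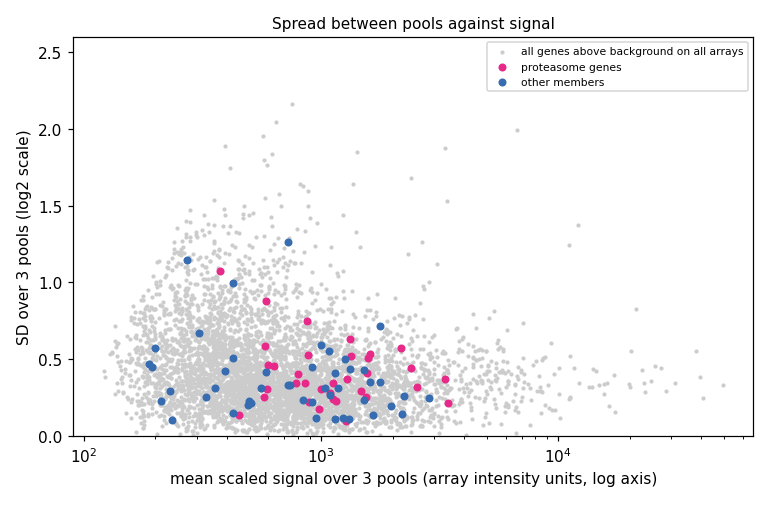
SD over the 3 pools (log2 scale) against mean scaled signal (log axis) for genes that passed the limit in every pool, with grey points for all 5006 genes and coloured points for the 34 proteasome genes and the other 47 members. The coloured points lie within the grey cloud, with Usp5, Ube2c and Psmd12 at SDs of 1.26, 1.15 and 1.07.

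Different probe sets of a member seldom ordered the pools alike. For 27 members there were 34 further probe sets, and 19 pairs of the chosen and a further probe set were above background on all arrays. The highest pool was the same in 5 of the 19 pairs, the lowest in 6, the full order was the same in 2, and replicates 1 and 2 differed in the same direction in 8. Ube2o had the same order at both probe sets (1415, 921 and 1192, and 557, 408 and 434), as did Usp7. Usp9x was highest in replicate 2 at the probe set used and highest in replicate 1 at the other, at 712, 362 and 329. In the other 11 pairs the direction between replicates 1 and 2 was opposite. Of the core genes, only Psmb1, Psmb4 and Psmb5 had a further probe set to compare. Those above background on all arrays gave 1051, 1138 and 717 for Psmb1, 3202, 3602 and 2378 for Psmb4, and 1137, 1588 and 1048 for Psmb5. Each was highest in replicate 2 but lowest in replicate 3, not in replicate 1.

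**Figure D5:**
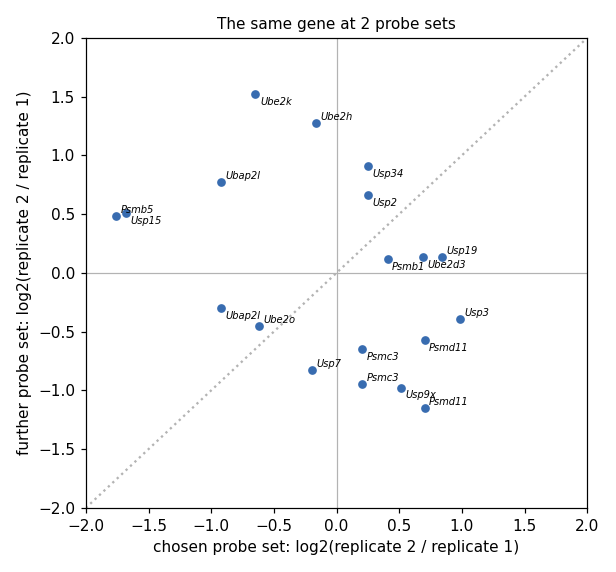
Log2 ratio of replicate 2 to replicate 1 at the chosen probe set (horizontal) and at a further probe set of the same gene (vertical), 1 point per pair for the 19 pairs above background on all arrays, with a dotted line of equality. Only 8 points lie in the quadrants of equal sign, and Psmb5, Usp15, Ube2k and Usp9x are among those in the opposite quadrants.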

How the data were processed

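Transcript levels in 3 pooled retina samples were analysed from 1 table of linear intensity values per probe set (12488 probe sets), as deposited by the authors. The software, background correction and scaling behind these intensities are not given in the sources used here, and no detection calls were used. Each array was multiplied by 1 factor that brought its trimmed mean (2% off each end, 12422 probe sets without the controls) to the average over the arrays. Values under the 5th percentile of an array were raised to it for log2 values only. Genes were named from the platform annotation where it lists 1 symbol (10833 probe sets). Probe sets with several symbols (396) were left out of the lists. One probe set was kept per gene, with a plain suffix preferred and then the highest mean. All 102 members matched RefSeq by gene ID. Replicate numbers follow accession order and only name the pools. With 1 group there was no contrast and no p-value. The number of arrays limits the precision, and the spread between pools may be partly technical. Named members were, by rule, all proteasome genes, enzymes with a fold range of 2 or more, those with the highest means or smallest ranges in each list, and those below background. Other genes named came first in fixed pathway and marker lists or had a fold range of 4 or more. Any beyond these were chosen after their values were seen. They were Usp7, Usp14, Ube2o, relatives of named genes, and the markers Nrl, Prph2, Snap25, Itgam, Lyz2, Tyrobp, Ctss and Cx3cr1. The members and lists were chosen with earlier results of these data known. Background limits, scaling, probe set choice, floors, minimum signals and left-out samples were varied. The computations were tested on simulated data. Python 3.11.15, numpy 2.4.6 and pandas 2.3.3 were used.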

Additional observations from a re-analysis of the deposited data

How the results depend on the processing

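Over 16 alternatives, 254 of 282 recomputed values stayed the same by the criteria used, 16 moved and 12 changed sign by more than a set margin. The criteria were wide: a count was the same within 1.5-fold, and a deviation within the members' median SD of 0.33. Replicate 2 highest in 44 and, with common median scaling, in 66 members thus counted as the same. Deviations that this scaling could not alter were also counted, so the tally is no measure of robustness. Smaller changes of sign counted as the same. The cause was not tested except where fewer samples or genes entered by construction. The 81 members above background became 81 to 86 when 1 sample was left out; the added minimum mean of 1000, chosen after seeing the data, left 39 by construction. The number with a fold range of 2 or more, 16, was 31 with common median scaling (38.3%, against 34.2% of all genes, the reverse of 19.8% against 28.3%), 34 of all 102 without a filter on low values (33.3% against 49.8%), 6 with a mean of 1000 or more (15.4% against 16.6%), and 5 to 10 when 1 sample was left out (5.81% against 5.66% without replicate 1, 9.88% against 17.8% without replicate 2, 12.0% against 21.9% without replicate 3). At a fold range of 1.5 or more it was 47 (58.0% against 60.7%) and at 4 or more it was 2 (2.47% against 3.36%). The median SD, 0.33 against 0.36 for all genes, became 0.46 against 0.42 with common median scaling, 0.41 against 0.52 without a filter, and 0.24 to 0.35 with 1 sample left out. Among the 39 members with a mean of 1000 or more, replicate 2 was highest in 27 (69.2%, against 54.1% of all genes in that range). In the same range replicate 1 was lowest in 27 members (69.2%, against 56.4%). The members' deviation in replicate 3, 0.087 relative to all genes, was -0.015 with the highest-mean probe set, -0.007 without a filter, -0.030 with a mean of 500 or more, and -0.219 to 0.169 with 1 sample left out, so it had no stable sign. Its signs in replicates 1 and 2 held in every alternative that gave a value, though common median scaling could not alter it. In replicate 3, leaving out 1 sample gave -0.328 to 0.356 for the core, -0.490 to 0.073 for the regulatory particle, -0.140 to 0.045 for E2 genes and -0.155 to 0.312 for ubiquitin-specific proteases. E2 genes also gave 0.035 in replicate 1 with quantile normalization and 0.060 with a mean of 1000 or more, against -0.141, and in replicate 3 -0.021 when the limit was the brightest control and -0.019 when it was an array's 40th percentile, against 0.036. Signals near the limit have no reliable order. No paired analysis was possible because there is only 1 group.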
